A study of Mus musculus with 12 samples.

Results

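The HSP70 chaperone family was followed in mouse Th17 cells, a type of CD4 T cell known for secreting IL-17. The family is given here as 10 genes, chosen by symbol from the 55401 genes of the count table: the stress-inducible pair Hspa1a and Hspa1b, their neighbour Hspa1l, the testis-enriched Hspa2, the constitutive cytosolic Hspa8, the mitochondrial Hspa9, the ribosome-associated Hspa14, and the HSP110 relatives Hspa4, Hspa4l and Hsph1. All 10 passed the filter on low counts. They were selected with the response to Stattic already known, so every comparison of libraries with Stattic against libraries without it is a description and carries no p-value. Changes with Kira8 were not used in the choice and were tested.

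All groups came from wild-type lymph-node T cells differentiated from naive cells, and the inhibitor was applied for 4 h. The groups were None (no inhibitor; a vehicle is not mentioned in the labels), Kira8, which inhibits the kinase and RNase IRE1alpha, Stattic, which inhibits STAT3, and Kira8+Stattic, with 3 libraries each. The labels give no age or sex of the mice and do not say whether libraries of a group came from separate cultures or animals, so p-values measure only the spread between these libraries, which may be technical.

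HSP70 proteins bind exposed hydrophobic stretches of client proteins and release them in a cycle driven by ATP. J-domain proteins deliver clients and stimulate ATP hydrolysis, and nucleotide exchange factors, among them the HSP110 proteins, reset the cycle. Heat-shock factor HSF1 switches on the inducible members when unfolded proteins accumulate, through promoter elements built from inverted repeats of GAA.

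Kira8 replicate 2 and Stattic replicate 2 stood apart from the other 10 libraries. They held 19.8 and 9.3 M counts against 51.7 to 85.9 M, mitochondrial genes took 61.55% and 10.66% of their counts against 3.379 to 5.221%, and their Spearman correlations with the other libraries were 0.53 to 0.57 against 0.89 to 0.98 among the rest. The values below come from the 10 libraries without these, so that Kira8 and Stattic have 2 libraries each. The fit of all 12 is given beside each Kira8 and interaction call of the 10 genes of the family. Levels are CPM (counts scaled to a common library total) with TMM factors, and calls were made with edgeR's quasi-likelihood test where the Benjamini-Hochberg adjusted p over 21239 genes was under 0.05. Summed B-cell markers were 123 to 153 CPM in None, 35.7 to 46.4 in Kira8, 13.4 to 22.8 in Stattic and 15.2 to 36.3 in Kira8+Stattic, and 5 of 8 were called lower with Kira8 and 7 of 8 with Stattic. Summed CD8 and NK markers were 412 to 623, 94.5 to 118, 191 to 260 and 109 to 185 CPM, with 6 and 3 of 7 called lower, and those of Th17 and CD4 T cells were 1721 to 3784, 1270 to 1401, 1307 to 1512 and 1292 to 1424 CPM, with 4 of 9 called lower with Kira8 and 1 higher and 6 lower with Stattic. Summed myeloid markers were 31.6 to 47.1, 62.3 to 65, 33.3 to 46.5 and 27.7 to 98.1 CPM, with 0 of 8 called with Kira8 and 2 called higher with Stattic. No marker of these 4 lists was at 0 in all 10 libraries. The part of cell make-up in the results below was not tested, and fewer cells of a type and less RNA per cell cannot be told apart in such bulk samples.

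The upstream sequences of the inducible pair are shown because both copies hold the same heat-shock-type match, and that of Hsph1 because it holds the other orientation. They are from RefSeq (GRCm38.p6), whose start sites define upstream here, read 5′ to 3′ on the gene's strand, with the matched repeat in capitals. The first is the 160 bases before the start of Hspa1a (chr17:34972157-34972316, minus strand), the second the same span of Hspa1b (chr17:34959239-34959398, minus strand), the third the 160 bases before Hspa1l (chr17:34972543-34972702, plus strand), which has no match, and the last 30 bases around the match of Hsph1 (chr5:149636351-149636380, minus strand).
Hspa1a: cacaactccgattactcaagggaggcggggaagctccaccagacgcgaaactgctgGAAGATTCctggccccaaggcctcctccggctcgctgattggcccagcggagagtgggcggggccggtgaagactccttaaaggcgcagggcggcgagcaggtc
Hspa1b: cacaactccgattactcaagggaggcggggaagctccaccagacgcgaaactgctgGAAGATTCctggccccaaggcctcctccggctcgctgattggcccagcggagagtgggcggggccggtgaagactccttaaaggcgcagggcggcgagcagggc
Hspa1l: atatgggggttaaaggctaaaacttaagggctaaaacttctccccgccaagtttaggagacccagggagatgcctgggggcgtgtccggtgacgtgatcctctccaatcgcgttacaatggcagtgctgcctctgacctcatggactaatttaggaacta
Hsph1: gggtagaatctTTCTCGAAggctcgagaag

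Promoter windows were found for 8 of the 10 genes, all but Hspa8 and Hspa9. In the 250 bases upstream, GAANNTTC occurred in Hspa1a and Hspa1b, at position -104 from the start site in each, and TTCNNGAA occurred in Hsph1 at position -33. The RefSeq start equals the GENCODE start used for the gene coordinates given here in Hspa1a, Hspa1b, Hspa1l and Hspa14, and lies 22 bases from it in Hspa4, 40 in Hsph1, 194 in Hspa2 and 1118 in Hspa4l, so the Hsph1 match falls inside the GENCODE gene. Both words read the same on either strand. GAANNTTC was present in 6.78% and TTCNNGAA in 7.1% of 27025 promoters of this length. The three-unit form that joins both words was in 0.4% of promoters and in none of the 8 windows. The letters describe these windows and do not show binding.

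The pair Hspa1a and Hspa1b are near copies. Each is a single exon on the minus strand of chromosome 17 (mm10, GENCODE M21), Hspa1a (ENSMUSG00000091971) at chr17:34969190-34972156 and Hspa1b (ENSMUSG00000090877) at chr17:34956436-34959238. Their coding sequences were 99.4% identical, with 11 differences in 1926 aligned columns, and their 250 upstream bases 98.8%. Of the 50-base words of the Hspa1a transcript, 58.8% also occurred in Hspa1b, 7.95% in Hspa1l and none in the other members. The sources used here do not give how the counting placed such reads. The split between the copies is therefore uncertain, and the sum of the pair was fitted as well.

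Without inhibitor the pair was low and uneven. Hspa1a was at 4.19, 45.1 and 63.7 CPM in the 3 None libraries, and Hspa1b at 5.17, 49.4 and 70.3 CPM. None replicate 1 lay about an order of magnitude below the other two for both copies. With Stattic, Hspa1a reached 11180 and 17620 CPM, and with Kira8+Stattic 9959, 18280 and 26160 CPM. Hspa1b reached 12820 and 21140 CPM with Stattic and 11610, 20930 and 28570 CPM with both inhibitors. Every library with Stattic was above every library without it. Relative to None the difference was 8.58 ± 0.94 on the log2 scale (± SE, 382-fold) for Hspa1a and 8.67 ± 0.92 (408-fold) for Hspa1b with Stattic, and 8.91 ± 0.94 and 8.94 ± 0.92 with both. The summed pair took 0.00103 to 0.0140% of all counts in None and 2.18 to 4.93% in the 5 libraries with Stattic.

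**Figure D1:**
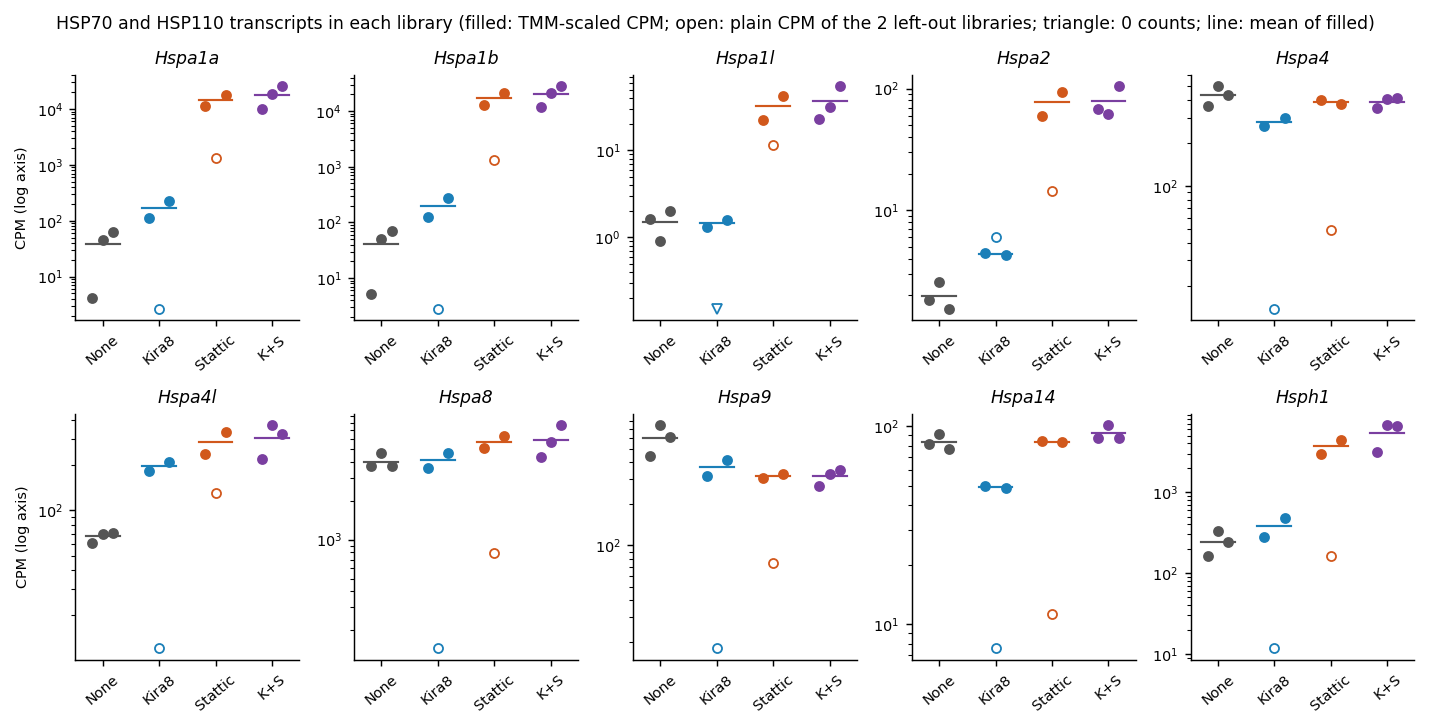
Level of each of the 10 genes in each library, in CPM on a log axis with its own range per gene (K+S is Kira8+Stattic). Filled points are TMM-scaled values of the 10 libraries used, lines their group means, open points plain CPM of Kira8 replicate 2 and Stattic replicate 2, and the triangle a library with 0 counts; Hspa1a and Hspa1b reach 9959 CPM or more in every filled library with Stattic and 275 or less in those without.

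With Kira8 alone the pair was intermediate. Hspa1a was at 113 and 227 CPM and Hspa1b at 127 and 275 CPM in the 2 Kira8 libraries, each above all 3 None libraries. The share of all genes whose Kira8 and None libraries separate is not given here. Such separation is therefore only a description, here and for the members below. Hspa1b rose by 2.27 ± 0.73 on the log2 scale (4.83-fold, edgeR adjusted p = 0.0469). Hspa1a had a change of 2.17 ± 0.74, which did not pass (edgeR adjusted p = 0.0606), and neither did the summed pair (2.23 ± 0.74, edgeR adjusted p = 0.0536). The Hspa1b call ended when any of 8 single libraries was left out, with adjusted p from 0.0525 to 0.315 in those fits, and without None replicate 3 or None replicate 1 it held. Across all fits the Hspa1b change ranged from 1.61 to 2.88, and Hspa1a passed without None replicate 1 (1.64, adjusted p = 0.0198) or None replicate 3 (2.79, adjusted p = 0.0419). Hspa1a also passed in DESeq2 (adjusted p = 0.0222), limma voom (0.0212), voom with quality weights on all 12 libraries (0.0196), without a filter (0.0476) and with only genes above 1 CPM in at least 3 libraries kept (0.0375). With all 12 libraries the Hspa1b call ended in edgeR (1.74, adjusted p = 0.599) and DESeq2 (1.76, adjusted p = 0.416), and Hspa1a was not called in edgeR (1.64, adjusted p = 0.612). Voom with quality weights on the same 12 libraries kept the Hspa1b call.

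Hspa1l (ENSMUSG00000007033, chr17:34972703-34979285, plus strand, 2 exons), a relative known from testis, lies beside Hspa1a and is transcribed away from it. It was at 1.61, 0.908 and 2.03 CPM in None and 1.34 and 1.57 CPM in Kira8. With Stattic it was at 22.4 and 41.9 CPM, and with both inhibitors at 23.2, 31.5 and 55.6 CPM. The sets with and without Stattic did not overlap, and the difference from None was 4.40 ± 0.42 on the log2 scale with Stattic and 4.60 ± 0.41 with both. The Kira8 change was -0.06 ± 0.43 and was not called (95% interval -0.99 to 0.87). For every 1000 counts of the pair there were 9.60 to 172 counts of Hspa1l in None, 3.13 and 5.55 in Kira8, and 0.803 to 1.08 in the 5 libraries with Stattic. Since 9.57% of the 50-base words of Hspa1l also occur in Hspa1a, the part of shared reads in these values was not tested.

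Hspa2 (ENSMUSG00000059970, chr12:76404176-76406938, plus strand) encodes an HSP70 best known from male germ cells. It was at 1.83, 2.59 and 1.54 CPM in None and at 4.46 and 4.32 CPM in Kira8. The Kira8 libraries were above all None libraries, a rise of 1.15 ± 0.29 on the log2 scale (2.21-fold, edgeR adjusted p = 0.0154). This call ended without either Kira8 library (adjusted p = 0.084 and 0.0781), without None replicate 3 (0.0507) and in limma voom (0.0839). With all 12 libraries the change was 2.59 in edgeR and not called (adjusted p = 0.373), nor was it in voom with quality weights (1.21, adjusted p = 0.0517). DESeq2 on the same 12 libraries kept the call. With Stattic, Hspa2 was at 59.5 and 94.7 CPM, and with both inhibitors at 68.7, 62.1 and 106 CPM. The difference from None was 5.28 ± 0.31 and 5.31 ± 0.30, or 38.8-fold and 39.7-fold, second in size to the pair.

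Hspa8 (ENSMUSG00000015656, chr9:40800984-40810087, plus strand), the constitutive cytosolic HSP70 that also uncoats clathrin vesicles, was the highest member without Stattic. It was at 3706, 4652 and 3673 CPM in None, 3561 and 4648 in Kira8, 5117 and 6331 in Stattic and 4311, 5641 and 7683 in Kira8+Stattic. Libraries with and without Stattic overlapped. The Kira8 change was 0.03 ± 0.24 (95% interval -0.50 to 0.56) and was not called, and the difference of Stattic from None was 0.51 ± 0.24. Its fitted difference was thus under 1.5-fold (1.43-fold with Stattic, 1.47-fold with both) where those of Hspa1a and Hspa1b with Stattic were 382-fold and 408-fold.

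The make-up of the family's transcripts shifted accordingly. Hspa8 supplied 70.1 to 76.7% of the counts of the 10 genes in the 5 libraries without Stattic and 10.7 to 15.4% in the 5 with it. The pair supplied 0.194 to 7.58% and 71.9 to 77.9%. Hsph1 went from 3.34 to 7.25% up to 8.80 to 12.8%. The 10 genes together took 0.509 to 0.687% of all counts without Stattic and 3.04 to 6.34% with it. In Stattic replicate 2, the shallow library left out of the fit, the pair still supplied 68.1% of the family's counts, and in Kira8 replicate 2 it supplied 2.47%.

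**Figure D2:**
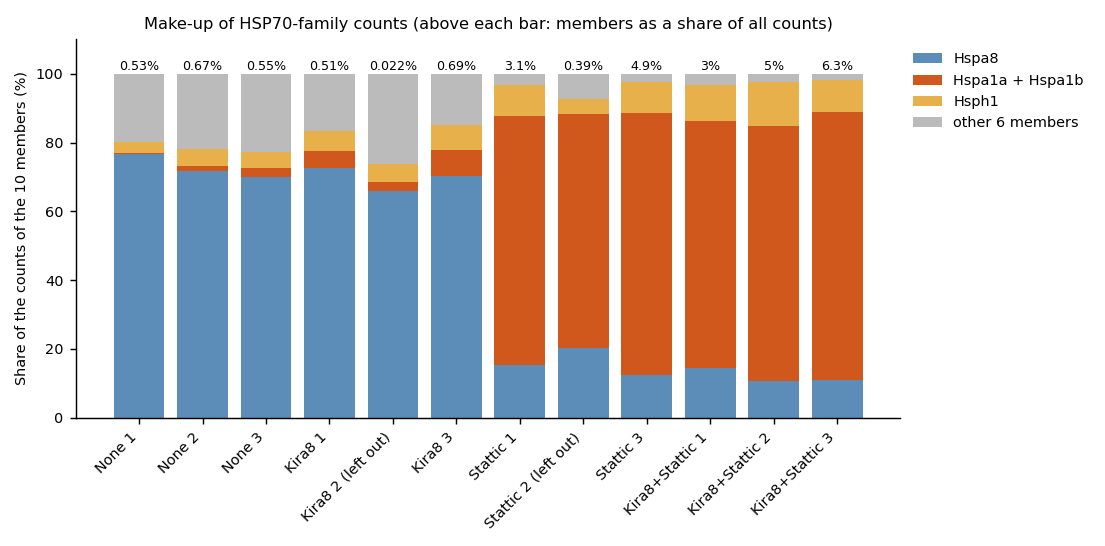
Share (%) of the counts of the 10 genes that came from Hspa8, from Hspa1a and Hspa1b together, from Hsph1 and from the other 6, in all 12 libraries, with the family's share of all counts printed above each bar. Hspa8 fills 66 to 77% of the bar in every library without Stattic, and the pair 68.1 to 77.9% in every library with it.

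Levels were also divided by exon length, taken as the union of all annotated exons of a gene. This was 11.8 kb for Hspa4l, with 8 annotated transcripts, and 2.80 kb for Hspa1b, with 1. Genes with many annotated transcripts may therefore read low, and the order is approximate. Per kilobase, Hspa8 led in None at 932 ± 129 CPM per kb (SD, n = 3). Hspa9 followed at 139 ± 34.9 and Hspa4 at 78.5 ± 12.8, and their lowest and highest libraries did not overlap. Hsph1 at 33.7 ± 11.96 and Hspa14 at 20.6 ± 1.92 overlapped, and so did Hspa14 with the pair (14.8 ± 11.9 for Hspa1b and 12.7 ± 10.3 for Hspa1a), whose own lowest library was also below Hspa4l at 5.72 ± 0.47. Hspa2 at 0.751 ± 0.204 and Hspa1l at 0.613 ± 0.229 were lowest and overlapped. In Stattic the order was led by Hspa1b at 6057 ± 2098 and Hspa1a at 4853 ± 1536 CPM per kb (SD, n = 2), which overlapped, then Hspa8 at 1331 ± 200 and Hsph1 at 509 ± 150. Hspa9 and Hspa4 stood next at 73.8 ± 3.00 and 70.2 ± 3.76, with overlapping libraries.

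**Figure D3:**
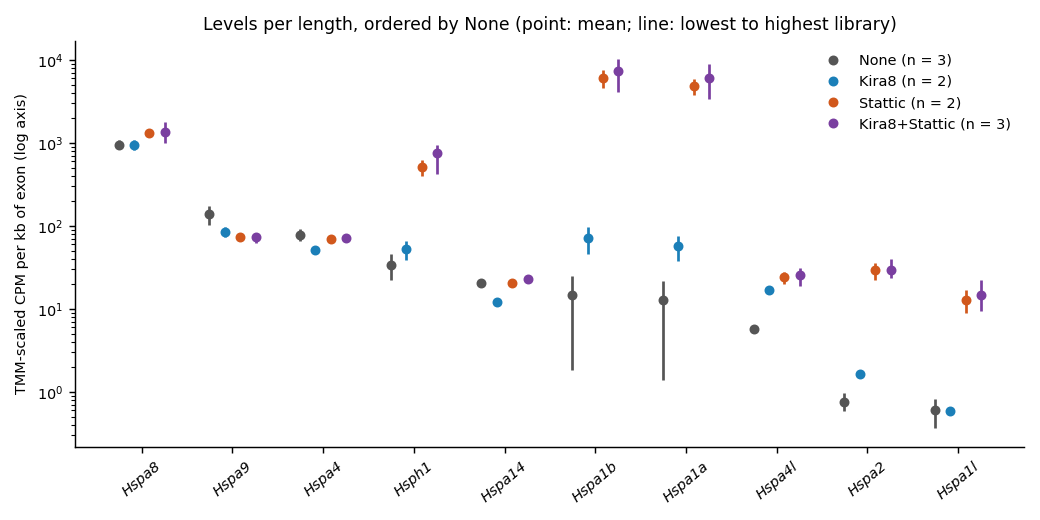
Mean TMM-scaled CPM per kb of exon on a log axis for each gene and group, ordered by the level in None, with lines from the lowest to the highest library. The inducible pair moves from sixth and seventh place in None, at 14.8 and 12.7, to the top with Stattic, at 6057 and 4853.

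Hsph1 (ENSMUSG00000029657, chr5:149614287-149636376, minus strand) encodes HSP105, an HSP110 that acts as nucleotide exchange factor and is itself heat-inducible. It was at 161, 335 and 239 CPM in None and 280 and 480 CPM in Kira8, which overlapped. The Kira8 change of 0.63 ± 0.37 was not called (edgeR adjusted p = 0.273). With Stattic it was at 2931 and 4471 CPM and with both inhibitors at 3103, 6771 and 6525 CPM, all above every library without Stattic. The difference from None was 3.92 ± 0.39 on the log2 scale (15.1-fold) and 4.48 ± 0.39 (22.3-fold).

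Hspa4l (ENSMUSG00000025757, chr3:40744495-40796103, plus strand), the HSP110 member APG-1, had the smallest adjusted p of the family with Kira8. It was at 61.0, 70.0 and 71.2 CPM in None and at 183 and 211 CPM in Kira8. The groups did not overlap, and the rise was 1.55 ± 0.22 on the log2 scale (2.92-fold, edgeR adjusted p = 0.000615). With Stattic it was at 236 and 333 CPM and with both at 221, 370 and 320 CPM, or 2.08 ± 0.22 and 2.17 ± 0.21 above None. The Kira8 call held when each library in turn was left out and ended in edgeR's fit of all 12 libraries (1.15 ± 0.50, adjusted p = 0.381). DESeq2 and voom with quality weights on the same 12 libraries kept it.

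Hspa4 (ENSMUSG00000020361, chr11:53259814-53300457, minus strand), the third HSP110 member, went the other way. It was at 363, 505 and 434 CPM in None and 264 and 302 CPM in Kira8, without overlap. It fell by 0.62 ± 0.18 on the log2 scale (edgeR adjusted p = 0.0272), a call that ended without either Kira8 library (adjusted p = 0.243 and 0.115), without None replicate 2 (0.0686) or without None replicate 3 (0.0507). It also ended with all 12 libraries in edgeR (-1.06, adjusted p = 0.536) and DESeq2 (-0.98, adjusted p = 0.431), but not in voom with quality weights. With Stattic it was at 403 and 373 CPM, inside the range of None, and with both at 352, 407 and 413 CPM.

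Hspa9 (ENSMUSG00000024359, chromosome 18, minus strand), mortalin, pulls proteins into mitochondria and folds them there. It was at 444, 744 and 613 CPM in None and 319 and 415 CPM in Kira8, without overlap. It fell by 0.71 ± 0.22 with Kira8 (edgeR adjusted p = 0.0428), but the call ended when any of 8 single libraries was left out, with adjusted p from 0.0563 to 0.328, and without None replicate 2 the change was -0.53. With all 12 libraries the change was -1.15 in edgeR (adjusted p = 0.444) and -1.07 in DESeq2 (adjusted p = 0.249), not called in either. Voom with quality weights on the same 12 libraries kept the call of Hspa9. It was at 309 and 327 CPM with Stattic and 269, 329 and 351 CPM with both, all below the lowest None library, a log2 difference of -0.92 ± 0.22 and -0.93 ± 0.20 from None.

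Hspa14 (ENSMUSG00000109865, chr2:3488850-3512814, minus strand), which works with a J-domain partner at the ribosome, was at 81.4, 92.0 and 76.8 CPM in None and at 50.01 and 48.6 CPM in Kira8. It fell by 0.76 ± 0.15 with Kira8 (edgeR adjusted p = 0.00387), with no overlap. With Stattic it was at 84.0 and 83.7 CPM and with both at 87.6, 102 and 87.2 CPM, at or near the level in None. The Kira8 call ended without either Kira8 library (adjusted p = 0.0505 and 0.065) and with all 12 libraries in edgeR (-0.92, adjusted p = 0.485) and DESeq2 (-0.70, adjusted p = 0.533). Voom with quality weights on the same 12 libraries kept the call. An annotated gene on the same strand, Gm45902, overlaps Hspa14, so reads there may be split.

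Over the family, Kira8 against None called 3 members higher (Hspa1b, Hspa2 and Hspa4l) and 3 lower (Hspa4, Hspa9 and Hspa14), and 4 were not called. Over all genes 9.7% were called higher and 9.59% lower. The median change of the 10 members, in which the pair counts as 2 genes, was 0.33 against 0 over all genes. With the pair summed into 1 gene, 2 members were called higher and 3 lower, of 4099 genes called. When Kira8 replicate 1 or replicate 3 was left out, Hspa4l was the 1 member called in each fit, and the lone Kira8 library is there assumed to vary like the other groups. The member called was higher and 0 were lower, where 945 genes were higher and 857 lower without Kira8 replicate 1, and 884 and 758 without Kira8 replicate 3. Without None replicate 2 the count was 3 members, of 3581 genes called. In the fit of all 12 libraries 0 members were called, as were 0% of 20993 genes (2689 genes and 2 members had an unadjusted p below 0.05). On the same 12 libraries DESeq2 called 2 members and 1122 genes, and limma voom with quality weights 6 members and 4672 genes.

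**Figure D4:**
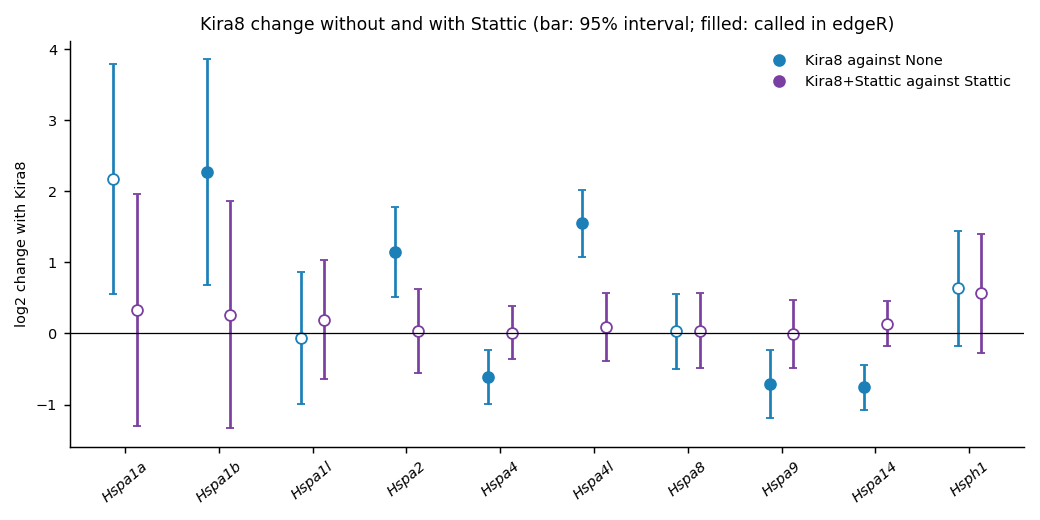
Change with Kira8 on the log2 scale for each gene, without Stattic (Kira8 against None) and with it (Kira8+Stattic against Stattic), with 95% intervals; filled points were called by edgeR. Filled points occur in the comparison without Stattic, 3 above 0 and 3 below, and every point of the comparison with Stattic is open.

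With Stattic present, Kira8 gave no call in the family: 0 of 10 members passed in Kira8+Stattic against Stattic, and 0 had an unadjusted p under 0.05. DESeq2 and limma voom also called 0. The background was 0.0141% of genes in either direction. The intervals bound the changes to different extents. For Hspa4l the 95% interval was -0.39 to 0.58, which excludes the rise of 1.55 seen without Stattic, and for Hspa14 it was -0.18 to 0.45, which excludes the fall of 0.76. For Hspa1a it was -1.30 to 1.97 and for Hspa1b -1.33 to 1.86. These were wide, but their upper ends lay below the rises of 2.17 and 2.27 without Stattic. The intervals of Hspa2 (-0.56 to 0.62), Hspa4 (-0.36 to 0.38) and Hspa9 (-0.48 to 0.47) also left out their changes of 1.15, -0.62 and -0.71. The changes without Stattic have errors of their own, which these limits do not take in and the interaction does. For Hsph1 the change was 0.56 ± 0.38, close in size to that without Stattic.

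The difference between both Kira8 changes was tested directly as an interaction. It was called lower for Hspa4l (-1.45 ± 0.31, edgeR adjusted p = 0.0153) and higher for Hspa14 (0.89 ± 0.21, edgeR adjusted p = 0.0214), and not for the other 8 members. Over all genes 4.55% were called higher and 3.97% lower. With all 12 libraries both calls ended, Hspa4l at -0.82 in edgeR (adjusted p = 0.672) and -1.07 in DESeq2 (0.344), and Hspa14 at 1.52 (0.349) and 1.25 (0.418), while voom with quality weights called 2 members. The Hspa4l call ended without Kira8 replicate 1 (adjusted p = 0.0513), Kira8 replicate 3 (0.0798) or Stattic replicate 3 (0.0803). The Hspa14 call ended without either Kira8 library (0.101 and 0.118), either Stattic library (0.053 and 0.0797) or Kira8+Stattic replicate 2 (0.0576). Hspa2 had an interaction of -1.11 ± 0.39 (edgeR adjusted p = 0.106), Hspa1b of -2.01 ± 1.02 (0.255) and Hspa1a of -1.84 ± 1.04 (0.312), none of them called.

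For the comparisons that the choice of members had used, the counts are given beside their background and nothing is read from them. With Stattic against None 6 members were called higher and 1 lower, where 20.1% and 18.9% of all genes were, and the median was 3.00 against 0.08. With Kira8+Stattic against None the counts were 6 and 1, where 20.8% and 20% of genes were, and the median 3.33 against 0.09. With the pair summed into 1 gene, both comparisons against None had 5 members higher and 1 lower. Against Kira8, 6 members were higher and 0 lower with Kira8+Stattic (14.7% and 16% of genes) and with Stattic (13.7% and 15.1%). These comparisons share control libraries. Hspa14 was among the 6 in both of the latter, at 0.90 ± 0.15 and 0.77 ± 0.16 above Kira8, and Hspa4l was not, at 0.62 ± 0.23 and 0.53 ± 0.24. In the fit of all 12 libraries 0.31% of genes were called with Stattic and 0.272% with both against None; 0 members were among the first and Hspa2 (5.29 ± 0.91) among the second, although the difference of Hspa1b was still 8.15 ± 1.71 with Stattic. On the same 12 libraries DESeq2 called 6 members in each of these comparisons (of 2768 and 1955 genes called) and voom with quality weights 7 in each (of 7778 and 9959). Scaling by library size alone moved the median of all genes by -0.16 in Stattic against None, which turned the sign of Hspa14 there (from 0.01 to -0.15).

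The regulators and partners of HSP70 were taken from lists drawn up with earlier results of these data known. Their counts stand against a background of 9.7% of all genes called higher and 9.59% lower with Kira8, and 20.1% and 18.9% with Stattic, with medians of 0 and 0.08. With all 12 libraries edgeR called 0 of 20993 genes in Kira8 against None, so every Kira8 call of these lists ended there. On the same 12 libraries DESeq2 called 1122 genes and voom with quality weights 4672. Fits that leave out single libraries are not given for these genes. Of the heat-shock factor genes, 4 of 5 were tested, 1 called higher and 0 lower with Kira8 and 1 and 1 with Stattic. Hsf2, a factor that forms mixed trimers with HSF1, rose with Kira8 by 1.58 ± 0.23 (edgeR adjusted p = 0.000687) and was 0.67 ± 0.23 above None with Stattic. Hsf1, the main activator of the heat-shock genes, differed by -0.36 ± 0.16 with Kira8 and was not called, and was at -1.40 ± 0.17 with Stattic.

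Of 17 cytosolic J-domain cochaperones, 3 were called higher and 3 lower with Kira8, and 5 and 5 with Stattic, with medians of 0.22 and 0.06 (all genes: 9.7% and 9.59% with Kira8, 20.1% and 18.9% with Stattic). Dnajb2, which carries clients to the proteasome, rose with Kira8 by 1.91 ± 0.16 (edgeR adjusted p = 4.05e-05), and Dnajb4 rose by 0.77 ± 0.19 (edgeR adjusted p = 0.0146). Dnajc21, a cofactor of ribosome biogenesis, fell by 0.88 ± 0.19 (edgeR adjusted p = 0.00587). With Stattic, Dnajb4 was 3.83 ± 0.20 above None, Dnajb1, the J-domain partner induced by heat along with HSP70, 3.56 ± 0.24, and Dnaja4 2.84 ± 0.26.

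Among 14 exchange factors and other cofactors, a list that includes the 3 HSP110 members, 1 was called higher and 4 lower with Kira8 (all genes: 9.7% and 9.59%), and 5 and 4 with Stattic (20.1% and 18.9%), with medians of -0.15 and 0.02. Bag2, which blocks the ubiquitin ligase CHIP, fell with Kira8 by 1.57 ± 0.26 (edgeR adjusted p = 0.00145) and Hspbp1, an inhibitor of HSP70 cycling, by 1.01 ± 0.20 (edgeR adjusted p = 0.00476). Bag3, the heat-inducible exchange factor of selective autophagy, was 4.43 ± 0.30 above None with Stattic, the largest difference of its list, and its Kira8 change of 0.69 ± 0.29 was not called.

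Of 12 HSP90 genes and cofactors, 1 was called higher and 5 lower with Kira8 (all genes: 9.7% and 9.59%), and 5 and 3 with Stattic (20.1% and 18.9%), with medians of -0.39 and 0.12. Fkbp4, a cochaperone of steroid receptors, fell with Kira8 by 0.74 ± 0.15 (edgeR adjusted p = 0.00528), and Trap1, the mitochondrial HSP90, by 0.77 ± 0.16 (edgeR adjusted p = 0.00647). Hsp90aa1, the inducible cytosolic HSP90, was 2.07 ± 0.30 above None with Stattic, whereas Trap1 was at -1.33 ± 0.17.

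The chaperonin TRiC, the ring that folds actin and tubulin, had 5 of 8 subunits called lower and 0 higher with Kira8 (all genes: 9.59% and 9.7%), and 1 lower and 0 higher with Stattic (18.9% and 20.1%), with medians of -0.55 and -0.19. Cct6a fell by 0.95 ± 0.16 (edgeR adjusted p = 0.00175) and Cct3 by 0.75 ± 0.17 (edgeR adjusted p = 0.00896) with Kira8. The largest edgeR adjusted p of the 5 called subunits was 0.0419. Of 11 mitochondrial partners of Hspa9, 5 were called lower and 0 higher with Kira8 (all genes: 9.59% and 9.7%), and 4 lower and 2 higher with Stattic (18.9% and 20.1%), with medians of -0.55 and 0.12. Dnaja3, its J-domain protein in the matrix, fell by 1.198 ± 0.206 (edgeR adjusted p = 0.00194) and was at -2.26 ± 0.22 from None with Stattic, Grpel1, its exchange factor, fell by 0.73 ± 0.17 (edgeR adjusted p = 0.0105), and Grpel2 was at -2.19 ± 0.18 with Stattic. The 2 called higher with Stattic were Hspe1 (1.16 ± 0.24) and Hscb (1.24 ± 0.28), a J-domain protein of iron-sulfur cluster assembly, named after its value was seen. Of 8 tested small HSP, HSP60, HSP10 and disaggregation genes, 0 were higher and 2 lower with Kira8 (all genes: 9.7% and 9.59%). With Stattic 4 were higher and 0 lower (20.1% and 18.9%), among them Hspe1, the HSP10 cofactor of HSP60. Hspd1 and Hspe1 are also on the list of mitochondrial partners. List medians were -0.87 and 0.61. The first rests partly on Hspb8, Serpinh1 and Hspb1, at means of 0.446, 0.389 and 1.52 CPM in None and not called with Kira8.

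In the endoplasmic reticulum, Hspa5 (BiP), the resident HSP70, fell with Kira8 by 1.25 ± 0.29 (edgeR adjusted p = 0.00943) and Hyou1, the HSP110 of that compartment, by 1.33 ± 0.22 (edgeR adjusted p = 0.0017). These were the 2 called of 5 genes, and 0 were higher. Over all genes 9.59% were called lower and 9.7% higher with Kira8. Of 7 J-domain and exchange partners there, 2 fell and 0 rose, Dnajb11 by 1.12 ± 0.19 (edgeR adjusted p = 0.00177) and Dnajc3 by 0.82 ± 0.17 (edgeR adjusted p = 0.00574). With Stattic, 0 of the 5 HSP70 genes were called higher and 3 lower, and of the 7 partners 1 higher and 2 lower (all genes: 20.1% and 18.9%). List medians were -1.01 and -0.33 with Kira8, and -1.40 and -0.44 with Stattic. Hspa12a and Hspa12b, both among the 3 HSP70 genes called lower with Stattic, were at means of only 0.974 and 0.377 CPM in None. The Kira8 median of -1.01 is the change of Hspa12a, which was not called. Hyou1 was at -1.40 ± 0.22 from None with Stattic, Dnajb11 at -1.17 ± 0.19 and Dnajc10 at -0.77 ± 0.17, while Hspa5 differed by 0.00 ± 0.27 and Dnajb9, a J-domain gene of the unfolded protein response, by 2.71 ± 0.22.

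**Figure D5:**
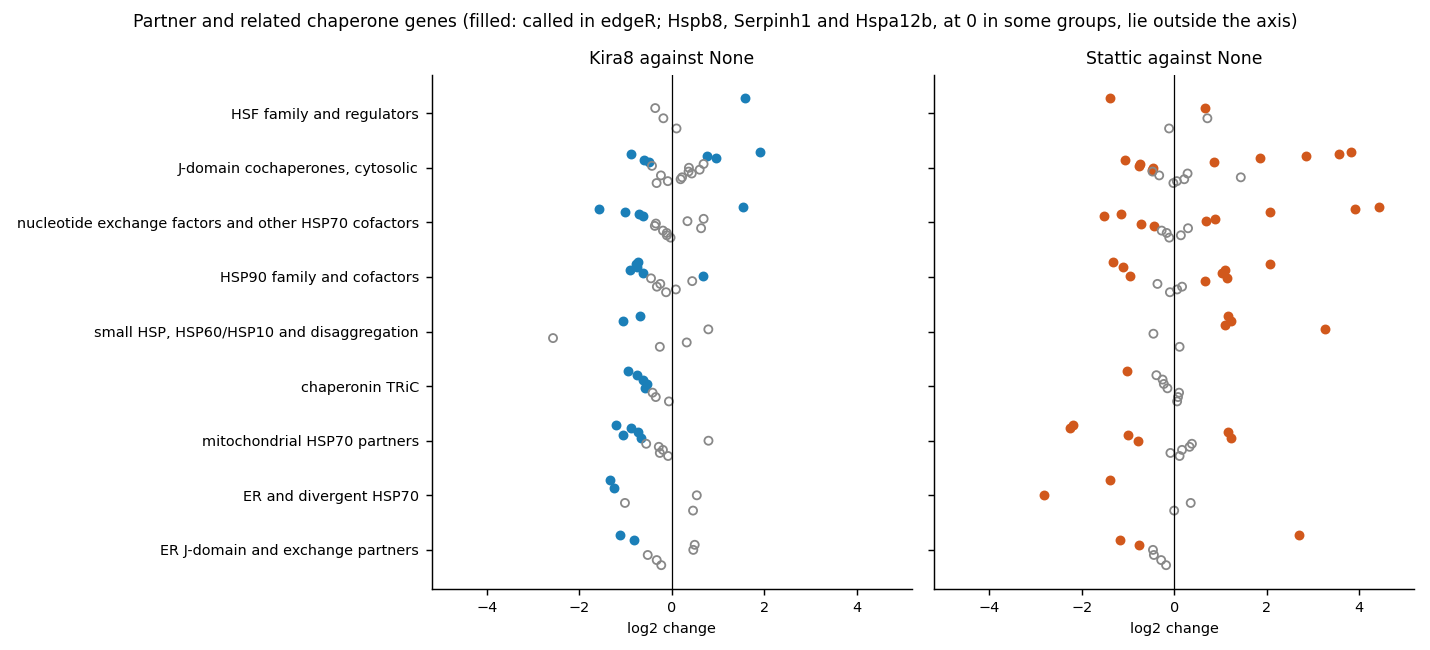
Change on the log2 scale of each tested gene of the 9 lists, with Kira8 (left) and Stattic (right) against None; filled points were called by edgeR, and Hspb8, Serpinh1 and Hspa12b lie outside the axis. Among the 8 TRiC subunits, 5 filled points lie below 0 with Kira8 and 1 with Stattic, and among the J-domain genes the Stattic values reach 3.83.

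The genes whose pattern was most like that of the summed pair were sought by Pearson correlation of log2 CPM over the 10 libraries, among 9656 genes of at least 5 CPM on average. The libraries fall into separate sets with and without Stattic, so the values are a description. The first 5 were Zmym2 (0.992), Rsrc2 (0.991), Dyrk1a (0.99), Sertad2 (0.99) and Jmjd1c (0.989). Zmym2 was at 45.5 to 76.1 CPM in None, 96.2 and 110 in Kira8, and 184 to 246 in the libraries with Stattic. Of the family, Hsph1 reached 0.978, Hspa2 0.97, Hspa1l 0.939, Hspa4l 0.904, Hspa8 0.779, Hspa14 0.381, Hspa4 0.092 and Hspa9 -0.684.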

How the data were processed

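The deposited table holds unnormalized read counts of 55401 Ensembl genes for 12 libraries, and 55141 of the genes had a symbol. Per the labels' protocols the material was total RNA with an integrity number above 7.0. The build was mm10, per the submitters' processing notes. Which aligner, counter and annotation were used, and whether strand was, is not given in the sources used here. Gene positions came from GENCODE M21.

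Members, lists, tests and the choice to leave out Kira8 replicate 2 and Stattic replicate 2 were made with earlier results of these data known. Counts were filtered with filterByExpr, scaled by TMM and tested with edgeR 4.0.16 (glmQLFit, glmQLFTest; R 4.3.3) in 1 fit with a coefficient per group, for 7 comparisons. The SE is the log2 change divided by the square root of F. The script was tested on simulated data. Alternatives were all 12 libraries, DESeq2 1.42.0, limma voom (3.58.1), other scalings and filters, the replicate block, the summed pair and each library left out.

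The text names all 10 members, up to 3 genes per list with the smallest adjusted p in each of Kira8 and Stattic against None, and the 5 genes most like the pair. Total counts were 51.7 to 85.9 M in the 10 libraries; replicates were compared by a chi-square test and none was a copy of another.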

Additional observations from a re-analysis of the deposited data

Results flagged for a closer look

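For 2 members the Kira8 change differed with and without Stattic in the test of the difference itself. The difference was -1.45 on the log2 scale for Hspa4l and 0.894 for Hspa14, each by edgeR's quasi-likelihood test over 10 libraries, and both calls ended in at least 3 of the fits that left out a single library. Both also ended with all 12 libraries, in edgeR (Hspa4l -0.82, Hspa14 1.52) and in DESeq2 (-1.07 and 1.25).

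The 2 libraries kept out of the fit held some family signals above the highest None library in plain CPM and others below the lowest. In Kira8 replicate 2, Hspa2 was above, at 6.06 CPM. Every other member was below the lowest None library there, with Hspa8 at 144.5 CPM, Hspa4l at 12.1 and Hspa1a at 2.62. In Stattic replicate 2 the members above were Hspa1a at 1354 CPM, Hspa1b at 1306, Hspa1l at 11.6, Hspa2 at 14.3 and Hspa4l at 131 CPM. In the same library Hspa8 was at 789 CPM, Hsph1 at 165, Hspa9 at 74.0, Hspa4 at 49.4 and Hspa14 at 11.3 CPM, all below the lowest None library. The part of the low depth and the mitochondrial share of these libraries in those values was not tested.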

How the results depend on the processing

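With all 12 libraries edgeR called 0 members in Kira8 against None, 0 in the interaction, 0 in Stattic against None, 1 in Kira8+Stattic against None, and 0 in Kira8+Stattic and in Stattic against Kira8; in that order DESeq2 on the same 12 called 2, 0, 6, 6, 4 and 4, and voom with quality weights 6, 2, 7, 7, 8 and 6. Leaving out single libraries gave 1 to 7 members in Kira8 against None and 0 to 4 in the interaction. Of 1463 values of single members under an alternative, 64 changed sign, 39 gained a call and 83 lost one. None of the 64 was called in either fit. The cause was not tested.

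The sign changes were these, as log2 changes. With all 12 libraries, edgeR, voom with quality weights and DESeq2 gave -0.447, -0.002 and -0.391 for Hspa8 in Kira8 against None, 0.388, 0.035 and 0.303 for Hspa9 in Kira8+Stattic against Stattic, 0.968, 0.121 and 0.891 for Hsph1 in the interaction, and -0.481, -0.017 and -0.361 for Hspa14 in Stattic against None; edgeR and DESeq2 gave 0.209 and 0.189 for Hspa9 in Kira8+Stattic against Kira8. Library size alone gave Hspa14 -0.152 with Stattic and -0.009 with both against None. Without a filter Hspa14 was at -0.003 in Stattic against None and Hspa9 at 0.002 in Kira8+Stattic against Stattic. The filter of more than 1 CPM in 3 libraries gave -0.001 for Hspa4 in Kira8+Stattic against Stattic and -0.014 for Hspa8 in the interaction, and limma voom gave 0.005 for Hspa1l in Kira8 against None and -0.023 for Hspa8 in the interaction.

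Leaving out single libraries moved Hspa1l from -0.325 to 0.201 and Hspa8 from -0.17 to 0.215 in Kira8 against None. In Kira8+Stattic against Stattic the ranges were -0.029 to 0.7 for Hspa1a, -0.062 to 0.67 for Hspa1b, -0.234 to 0.716 for Hspa1l, -0.258 to 0.408 for Hspa2, -0.042 to 0.096 for Hspa4, -0.13 to 0.367 for Hspa4l, -0.203 to 0.236 for Hspa8 and -0.09 to 0.112 for Hspa9. In the interaction they were -0.17 to 0.777 for Hspa1l, -0.236 to 0.239 for Hspa8 and -0.404 to 0.371 for Hsph1, and in Stattic against None -0.049 to 0.084 for Hspa14.

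In 13 pairs of libraries with the same replicate number, deviations from the group mean correlated at 0.017 to 0.218, and 2 exceeded 0.1. In Kira8 and Stattic, with 2 libraries each, the deviations of both libraries are mirror images. The pairs are therefore not separate observations, and Kira8 with Stattic gave 0.084 for replicate 1 and for replicate 3. Pairs with different numbers were not compared, so whether the numbers pair the samples was not tested. With the replicate block 8 members were called in Kira8 against None instead of 6, Hsph1 (0.868) and Hspa1a (2.73) being added, and 0 in Kira8+Stattic against Stattic, where Hspa1b was at -0.034, Hspa4 at -0.071, Hspa4l at -0.009 and Hspa8 at -0.027; Hspa8 was at -0.092 in the interaction.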

Other observations

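Annotated neighbours of the members had counts of their own. Gm20481, which lies on the opposite strand over Hspa1a, had 0 counts in every library without Stattic and in Stattic replicate 2, and 432 to 4352 counts in the other 5 libraries with Stattic, or 0.755 to 2.15 per 1000 counts of Hspa1a. Gm10501, antisense to Hspa1l, had 20 to 84 counts in the 5 libraries without Stattic that were fitted and 289 to 1523 in the 5 with it. Since the use of strand in counting is not given in the sources used here, reads of such pairs cannot be told apart.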
